A study of Danio rerio with 9 samples.

Results

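DNA replication genes encode the proteins that copy the genome once in each cell cycle. The list held 57 gene symbols, matched by name, of proteins with a place in the replication machinery. Of these, 54 had a row in the count table, and since *rrm2* had 2 gene identifiers they gave 55 rows, called members from here, among 16575 genes in all. *mcm10*, *ccne2* and *e2f1* had no row and are not analysed here.

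Chromosomes are licensed for replication when the origin recognition complex (*orc1* to *orc6*), with Cdc6 and Cdt1, loads the ring-shaped Mcm2 to Mcm7 helicase onto DNA, while geminin (*gmnn*) blocks a repeat of this loading. In S phase, kinase signals recruit Cdc45 and the GINS complex to make the helicase active, and primase, DNA polymerases, the sliding clamp Pcna and its loader copy both strands. The RNAs of many of these genes rise as cells enter S phase, so that they are widely used as a readout of proliferation. In the adult zebrafish heart, cardiomyocytes keep the capacity to re-enter the cell cycle, and endothelial, epicardial and blood cells also divide. RNA from whole ventricle mixes all of these, and fewer cells of a type cannot be told apart here from less RNA per cell.

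The study asked which transcripts differ between ventricles with and without Vegfc and Vegfd signalling, the growth factors that drive lymphatic vessel formation. Poly(A) RNA was sequenced from fresh ventricles of zebrafish 5 months old, in 5 control libraries with genotype vegfc(+/+);vegfd(+/+) and 4 mutant libraries with genotype vegfc(hy-/-);vegfd(-/-). The *vegfc* allele (hu5055 in the methods of the study) is hypomorphic, so that some Vegfc function may remain, and the *vegfd* allele (uq9bh) is described as null. In the study both mutations were brought into a Lyve1 reporter background, and the labels do not say whether the sequenced fish carried it, nor their sex, nor whether each library was 1 fish. The p-values therefore measure the spread between these libraries, which may be technical. The controls are numbered 1 to 5 and the mutants 6 to 9, as in the sample titles.

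The libraries held between 23302636 and 33496006 counts. Control 2 was the shallowest and had 684 genes at 0, against 69 to 127 in the other controls and 107 to 320 in the mutants. *vegfd* was lower in the mutants, with 34 to 154 counts in the controls and 4 to 18 in the mutants, whereas *vegfc*, whose allele need not lower its RNA, differed by 0.35 ± 0.46 (log2, SE). Cardiomyocyte marker genes (10 rows) summed to 114348 to 132251 CPM (counts set to a common library total, with edgeR's TMM factors) in the controls and 96648 to 108422 CPM in the mutants, so that the tissue label held and the sums did not overlap. These sums are dominated by a few contractile genes, and the mean of the same 10 rows on the centred log2 scale did overlap, at −0.11 to 0.12 in the controls and −0.10 to 0.11 in the mutants. Lymphocyte markers (8 rows) summed to 19.7 to 78.0 CPM in the controls and 11.4 to 19.4 CPM in the mutants, again with no overlap. The sums for macrophages and other leukocytes (265 to 899 CPM and 253 to 814 CPM; 14 rows), erythrocytes, thrombocytes, blood endothelium and for fibroblasts with epicardium overlapped between genotypes. Within the last list of 11 rows, 7 had a log2 fold change below 0 and 4 above 0. Its epicardial marker *tbx18* was lower in the mutants, at 3.89 ± 1.76 CPM (SD, n = 4) against 11.6 ± 4.16 CPM in the 5 controls (adjusted p 0.0494 in edgeR's quasi-likelihood test). *tcf21* was at 10.4 ± 5.42 CPM in the controls and 3.59 ± 2.09 CPM in the mutants (adjusted p 0.100 in the same test). Another epicardial marker, *wt1b*, went the other way, at 0.788 ± 0.437 CPM in the controls and 2.27 ± 1.77 CPM in the mutants (adjusted p 0.174 in the same test). None of the 8 ovary markers had a row. The part of these shifts in the results that follow was not tested.

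Replication genes stood mostly higher in the mutants, with a median log2 fold change of 0.42 but few calls. *orc6*, a subunit of the origin recognition complex, rose 7.26-fold, and *mcm5*, a subunit of the helicase, rose 2.69-fold, and no member was called lower. These 2 of 55 members (3.64%) passed an adjusted p of 0.05 in the quasi-likelihood F test of edgeR (two-sided, Benjamini-Hochberg adjusted over all 16575 genes), while 2.13% of all genes were called higher and 1.21% lower in the mutants. In this test the share of members called was near that of all genes. No member was called lower in any other tool run, and none was lower at an unadjusted p under 0.05. The count of members called higher depended on the tool, with 6 (10.9%) in edgeR's likelihood ratio test, which called 4.93% of all genes higher, and 8 (14.5%) in DESeq2, which called 5.60% higher. Both added *mcm2*, *mcm4*, *pcna* and *prim2*, and DESeq2 also added *orc4* and *gins1*. The newer form of the quasi-likelihood test called *orc6* and *mcm5* alone among members and 3.34% of all genes higher.

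The direction of the members was more uniform than their calls. Of 55 members, 45 had a log2 fold change (mutant minus control) above 0 and 10 below 0, against 48.7% of all genes above 0. The median over members was 0.42, and over all genes −0.01. At an unadjusted p under 0.05, 17 members (30.9%) were higher and 0 lower, beside 11.0% of all genes higher and 9.87% lower. In 4 members, *orc6*, *mcm5*, *gins2* and *pcna*, all mutants lay above all controls (7.27%), and in none did all lie below, where 6.07% and 4.46% of all genes did. Fitted changes were above 2-fold higher in 15 members, 1 of them an *rrm2* row near 0 in the controls, and above 2-fold lower in 0. The share of all genes with such changes was not counted, so that these 2 counts have no background. Since the members varied together across libraries, these counts are a description and not 55 separate results. *gins2* held 6 to 10 counts in the controls, *cdc7* 1 to 16 and the *rrm2* row ENSDARG00000020711 0 to 3. These rows reached the mean of 10 counts needed for a row only through the mutants, which favours changes above 0. *gins2* is among the 4 members without overlap. *gins2* and this *rrm2* row are among the 17 higher at an unadjusted p under 0.05. With that minimum raised to 50 counts, which left these rows out, 35 of 42 members were above 0, with a median of 0.41. The raised minimum was also a mean over all 9 libraries. *tyms*, *pole*, *mcm3*, *prim2* and *prim1* reached it only through the mutants, and all were above 0. This count therefore cannot show the direction free of the filter. The part of such rows in the other counts was not tested. For the score that follows the same raised minimum was tried, with the same limit.

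A mean score was computed for each library, as log2(CPM + 1) of each member less that gene's mean over the 9 libraries, averaged over the 55 members. The score was −0.09, −0.26, −0.09, −0.16 and −0.28 in controls 1 to 5 and 0.02, 0.76, −0.00 and 0.10 in mutants 6 to 9. Every mutant stood above every control, but mutant 7 stood far above the other mutants, and mutants 6, 8 and 9 were nearer to the highest control than to mutant 7. The mean was −0.18 ± 0.09 (SD, n = 5) in the controls and 0.22 ± 0.36 (SD, n = 4) in the mutants, a difference of 0.40 or 1.32-fold on the CPM + 1 scale. Without mutant 7 the difference was 0.21, and without control 2 it was 0.37. Leaving out *orc6* and *mcm5* gave 0.34.

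**Figure D1:**
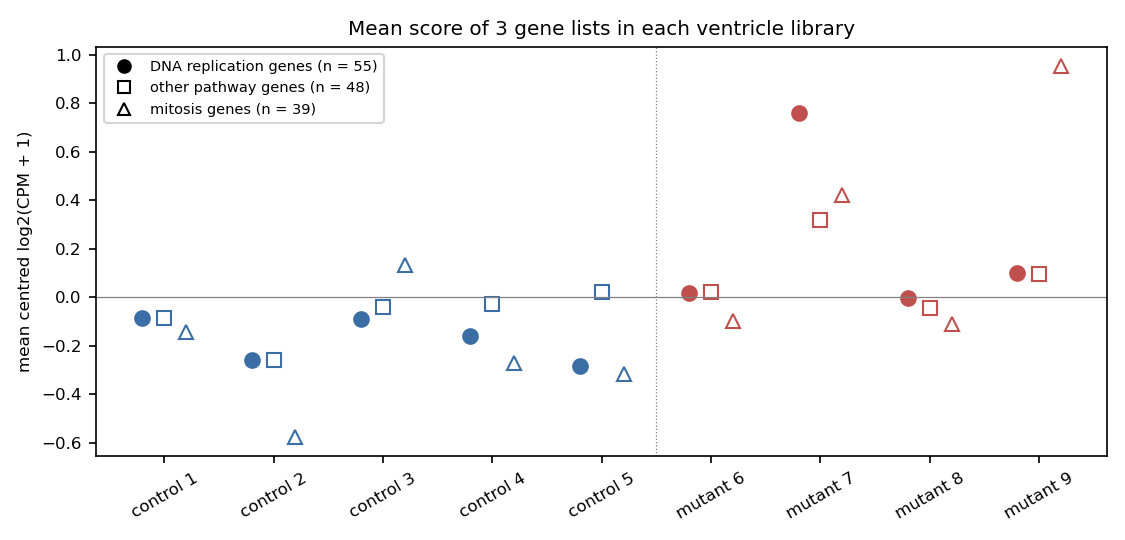
Mean score of the DNA replication members in each library, beside the scores of the other pathway genes and of the mitosis genes (log2 scale, centred on the 9 libraries; 1 point for each list and library; controls in blue, mutants in red). For the replication members mutant 7 stands at 0.76 and the other mutants between −0.00 and 0.10, while for the mitosis genes mutant 9 is highest at 0.96.

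The licensing genes held both calls, and 14 of their 15 members were above 0, with a median log2 fold change of 0.54. *orc6* (ENSDARG00000075682) binds DNA with the rest of the origin complex and takes part in loading the helicase. It was at 12.1, 5.90, 7.95, 4.15 and 3.17 CPM in controls 1 to 5 and at 28.9, 72.6, 49.5 and 42.4 CPM in mutants 6 to 9. The lowest mutant lay above 2 times the highest control, and although mutant 7 was again highest, mutants 6, 8 and 9 were all well apart from the controls. The control mean was 6.66 ± 3.55 CPM (SD, n = 5) and the mutant mean 48.4 ± 18.3 CPM (SD, n = 4), a fitted change of 2.86 ± 0.40 on the log2 scale (SE; edgeR adjusted p 0.00569). By p it ranked 63 among all genes. Its log2 fold change without mutant 7 was 2.59, with an adjusted p of 0.0183.

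The other 5 subunits of the origin complex had smaller fitted changes than *orc6*. The median log2 fold change of *orc1* to *orc5* was 0.29, from 0.09 for *orc3* to 1.04 ± 0.33 (SE) for *orc4* (adjusted p 0.108 in the same edgeR test), and none passed the test. Because the subunits act as 1 complex, their unequal change is given as a measurement only, and the difference between them was not tested.

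The Mcm2 to Mcm7 subunits form a hexamer in equal parts, and all 6 genes had a log2 fold change above 0, with a median of 1.38. *mcm5* (ENSDARG00000019507) was at 2.26, 1.69, 4.95, 2.92 and 2.99 CPM in the controls and at 5.43, 10.4, 7.42 and 8.84 CPM in the mutants. All 4 mutants lay above all 5 controls, although mutant 6 was close to control 3, the highest control. The control mean was 2.96 ± 1.23 CPM (SD, n = 5) and the mutant mean 8.01 ± 2.1 CPM (SD, n = 4), a fitted change of 1.43 ± 0.31 on the log2 scale (SE; edgeR adjusted p 0.0373). This call was lost when any 1 of controls 1, 4 and 5 or mutants 7, 8 and 9 was left out, with adjusted p between 0.0212 and 0.101 over the 9 such fits.

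*mcm2*, *mcm3*, *mcm4* and *mcm6* shared another pattern, with mutant 7 far above the rest. *mcm4* was at 3.21, 5.08, 4.19, 2.33 and 1.45 CPM in the controls and at 7.07, 23.1, 6.52 and 4.77 CPM in the mutants. *mcm6*, whose symbol belongs to a further identifier with no row here, was at 2.16, 0.229, 3.71, 1.04 and 1.54 CPM in the controls and at 2.45, 14.3, 3.57 and 3.18 CPM in the mutants. In both genes mutant 7 was at least 3 times any other library of its genotype, and the groups overlapped. *mcm2* was at 2.6, 2.33, 3.23, 1.54 and 1.57 CPM in the controls and at 3.36, 10.2, 3.21 and 4.13 CPM in the mutants. *mcm3* was at 1.24, 0.457, 2.83, 1.57 and 0.592 CPM in the controls and at 2.07, 7.41, 1.69 and 2.48 CPM in the mutants. Here too mutant 7 stood alone, and the other 3 mutants lay within or near the range of the controls. The log2 fold changes were 1.21 ± 0.39 (SE) for *mcm2*, 1.34 ± 0.59 for *mcm3*, 1.68 ± 0.50 for *mcm4* and 1.75 ± 0.70 for *mcm6*. Their adjusted p-values in edgeR's quasi-likelihood test ran from 0.0937 to 0.228, so that none passed. Without mutant 7 they were 0.66, 0.63, 0.92 and 0.81.

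*mcm7* was the member of the hexamer with the smallest change. It was at 6.27, 7.54, 5.66, 9.53 and 4.18 CPM in the controls and at 5.46, 9.14, 6.30 and 9.09 CPM in the mutants, a fitted change of 0.18 ± 0.26 on the log2 scale (SE; edgeR adjusted p 0.748). Control 4 was the highest library and the mutants lay inside the range of the controls.

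**Figure D2:**
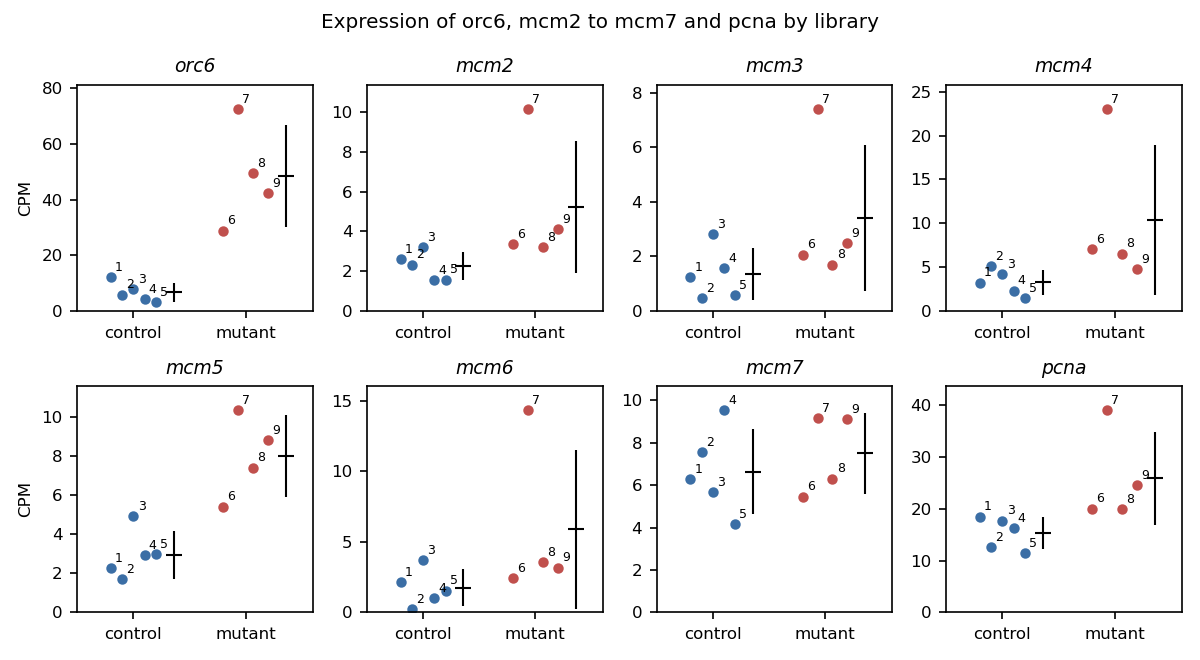
TMM-scaled CPM of *orc6*, *mcm2* to *mcm7* and *pcna* in each library (linear axes; each numbered point is 1 library, and the bar beside each group is its mean ± SD, n = 5 and n = 4). *orc6* separates the genotypes, with mutants at 28.9 to 72.6 CPM and controls at 3.17 to 12.1 CPM, whereas in *mcm2*, *mcm3*, *mcm4* and *mcm6* mutant 7 lies far above the other mutants.

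Among the remaining licensing factors, *cdc6*, which loads the helicase together with Cdt1, was one of the 4 members with the most negative change. It was at 1.17, 1.1, 0.990, 0.692 and 1.01 CPM in the controls and at 0.350, 1.01, 0.540 and 0.763 CPM in the mutants, a fitted change of −0.57 ± 0.41 on the log2 scale (SE; edgeR adjusted p 0.462). Its groups overlapped and mutant 7 was the highest mutant. *cdt1* was at 0.17 and *gmnn*, the inhibitor of Cdt1, at 0.54 on the log2 scale, and neither passed the test. Without mutant 7 they were at −0.22 and 0.23.

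Of the 7 genes of origin firing and the active helicase, 5 lay above 0 and the median was 0.83 on the log2 scale. None was called by edgeR's quasi-likelihood test. The GINS complex is a ring of 4 subunits that ties Cdc45 to the Mcm hexamer. *gins1*, the gene of this group with the smallest p, was at 4.26, 1.83, 2.55, 2.89 and 2.78 CPM in the controls and at 5.78, 6.34, 3.93 and 4.32 CPM in the mutants. It differed from the *mcm* genes in that mutants 6 and 7 were nearly level. Control 1 lay above mutant 8, so that the groups overlapped, as they did in *mcm2*, *mcm3*, *mcm4*, *mcm6* and *mcm7*. Its fitted change was 0.83 ± 0.27 on the log2 scale (SE; edgeR adjusted p 0.116). *gins3* lay below 0 and had the most negative change of all members, at −0.74 ± 0.61 (SE) with an adjusted p of 0.530. It was at 0.896, 2.15, 0.453, 0.314 and 0.918 CPM in the controls and at 0.455, 0.974, 0.396 and 0.413 CPM in the mutants. Control 2, the shallowest library, was highest, and without it the change was −0.20 on the log2 scale. *gins2* and *gins4* were at 1.61 ± 0.67 and 1.59 ± 0.86 (log2, SE). In *gins2* the mutants lay above the controls, but mutants 6, 8 and 9 (0.286 to 0.385 CPM) exceeded the highest control (0.283 CPM) by little and mutant 7 was at 2.1 CPM. *cdc45* was at 0.98, *cdc7*, the kinase that acts on the Mcm ring, at 0.83, and *topbp1*, a scaffold for Cdc45 loading, at −0.00 on the log2 scale. Without mutant 7 *cdc45* was at 0.56, *cdc7* at 0.08 and *gins2* at 0.39.

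The sliding clamp, its loader and the single-strand binding protein RPA had small fitted changes, with 8 of 9 members above 0 and a median log2 fold change of 0.26. *pcna*, the clamp that holds polymerases on DNA, was at 18.4, 12.6, 17.7, 16.3 and 11.5 CPM in the controls and at 19.99, 39.0, 19.95 and 24.6 CPM in the mutants. The groups did not overlap, but mutants 6 and 8 lay only just above control 1. Its fitted change was 0.76 ± 0.23 on the log2 scale (SE; edgeR adjusted p 0.103), and 0.49 without mutant 7. The clamp loader genes *rfc1* to *rfc5* ranged from −0.15 to 0.32, and *rpa1*, *rpa2* and *rpa3* were at 0.18, 0.55 and 0.20 on the log2 scale. *rpa1* was one of the more highly expressed members, at 27.9 to 32.0 CPM in the controls and 29.0 to 42.2 CPM in the mutants.

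Polymerase and primase genes had 8 of 9 members above 0 and a median log2 fold change of 0.50, and none was called by edgeR's quasi-likelihood test. *prim2*, the large subunit of the primase that lays down RNA primers, was at 2.32, 0.732, 1.61, 1.6 and 0.889 CPM in the controls and at 3.08, 5.37, 2.16 and 2.83 CPM in the mutants. Only control 1 reached into the range of the mutants, above mutant 8. Its fitted change was 1.22 ± 0.39 on the log2 scale (SE; edgeR adjusted p 0.115). Its partner *prim1* was at 0.82, and *pola1* and *pola2*, subunits of the polymerase that extends the primers, were at 0.71 and 0.50. The genes of the lagging-strand polymerase, *pold1*, *pold2* and *pold3*, were at −0.15, 0.42 and 0.22, and those of the leading-strand polymerase, *pole* and *pole2*, at 1.25 and 0.42 on the log2 scale. *pola1* was another gene with mutant 7 alone, at 10.6 CPM against 3.08 to 3.78 CPM in the other mutants and 2.28 to 4.09 CPM in the controls, and its log2 fold change was 0.11 without mutant 7. For *pole* the SE was 0.76 (adjusted p 0.378 in edgeR's quasi-likelihood test). Control 2 held 0 counts for *pole* and mutant 7 was its highest library. Without each library in turn its log2 fold change was 0.84 to 1.51.

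Okazaki fragments are joined after the flap endonuclease Fen1 and ribonuclease H2 remove the primers and DNA ligase 1 seals the nick. *fen1* was at 4.54, 1.55, 4.22, 4.65 and 3.02 CPM in the controls and at 7.74, 10.7, 4.0 and 4.96 CPM in the mutants. Mutants 6 and 7 were high and mutant 8 lay below 3 of the controls. Its fitted change was 0.93 ± 0.36 on the log2 scale (SE; edgeR adjusted p 0.184). *lig1* was at 0.44. *rnaseh2a*, the catalytic subunit of ribonuclease H2, was at 7.36, 5.72, 8.71, 9.06 and 8.20 CPM in the controls and at 7.0, 7.13, 4.43 and 5.02 CPM in the mutants, a fitted change of −0.41 ± 0.21 on the log2 scale (SE; edgeR adjusted p 0.293). Mutants 8 and 9 lay below all controls and mutants 6 and 7 within their range.

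Genes of nucleotide supply had 5 of 7 rows above 0 and a median log2 fold change of 0.25, and none was called by edgeR's quasi-likelihood test, its likelihood ratio test or DESeq2. Ribonucleotide reductase makes deoxynucleotides from a large subunit, *rrm1*, and a small subunit, *rrm2*, which had 2 identifiers under 1 symbol, so that the division of reads between them is uncertain. The row ENSDARG00000020711 held 3, 0, 0, 0 and 0 counts in the controls and 0, 155, 62 and 0 counts in the mutants. It was thus near the floor in 7 of 9 libraries and present in mutants 7 and 8, and no fold is given. Its adjusted p in edgeR's test was 0.0857. The other row, ENSDARG00000078069, ran from 1.75 to 5.38 CPM in the controls and from 3.06 to 5.12 CPM in the mutants, at 0.11 ± 0.31 (log2, SE). *tyms* and *tk1*, which make and salvage thymidine nucleotides, were at 1.75 ± 0.62 and 1.99 ± 0.83 (log2, SE). Without mutant 7 they were at 0.77 and 0.95. In both mutant 7 was the highest library by far, at 7.57 CPM for *tyms* and 4.81 CPM for *tk1*, with 1.02 to 1.84 CPM and 0.280 to 1.81 CPM in the other mutants. *rrm1*, *dhfr* and *dut* were at 0.25, −0.15 and −0.16.

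The 4 genes of chromatin assembly and fork protection had a median log2 fold change of 0.49. *chaf1a*, the large subunit of the factor that places new histones behind the fork, was at 3.09, 1.97, 3.65, 2.36 and 2.04 CPM in the controls and at 3.05, 8.83, 3.46 and 4.26 CPM in the mutants. Mutants 6 and 8 lay inside the range of the controls. Its fitted change was 0.90 ± 0.34 on the log2 scale (SE; edgeR adjusted p 0.173), and that of *chaf1b* was 1.5 ± 0.72. Without mutant 7, at 4.24 CPM for *chaf1b* with 0.280 to 1.24 CPM in the other mutants, these were 0.45 and 0.55. *tipin*, which with Timeless steadies stalled forks, was at 2.66, 2.88, 3.76, 4.34 and 5.39 CPM in the controls and at 4.80, 2.32, 2.34 and 1.72 CPM in the mutants. Mutant 6 was the second highest library and the other mutants lay below all controls, with a fitted change of −0.45 ± 0.34 on the log2 scale (SE; edgeR adjusted p 0.488). *timeless* was at 0.07. Of the genes of S phase entry only *ccne1*, a cyclin that activates Cdk2, had a row. It was at 0.124, 0.366, 0.622, 0.535 and 1.04 CPM in the controls and at 0.280, 0.471, 0.432 and 0.858 CPM in the mutants, a fitted change of −0.08 ± 0.61 on the log2 scale (SE; edgeR adjusted p 0.961). Its counts were low and the groups overlapped throughout.

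**Figure D3:**
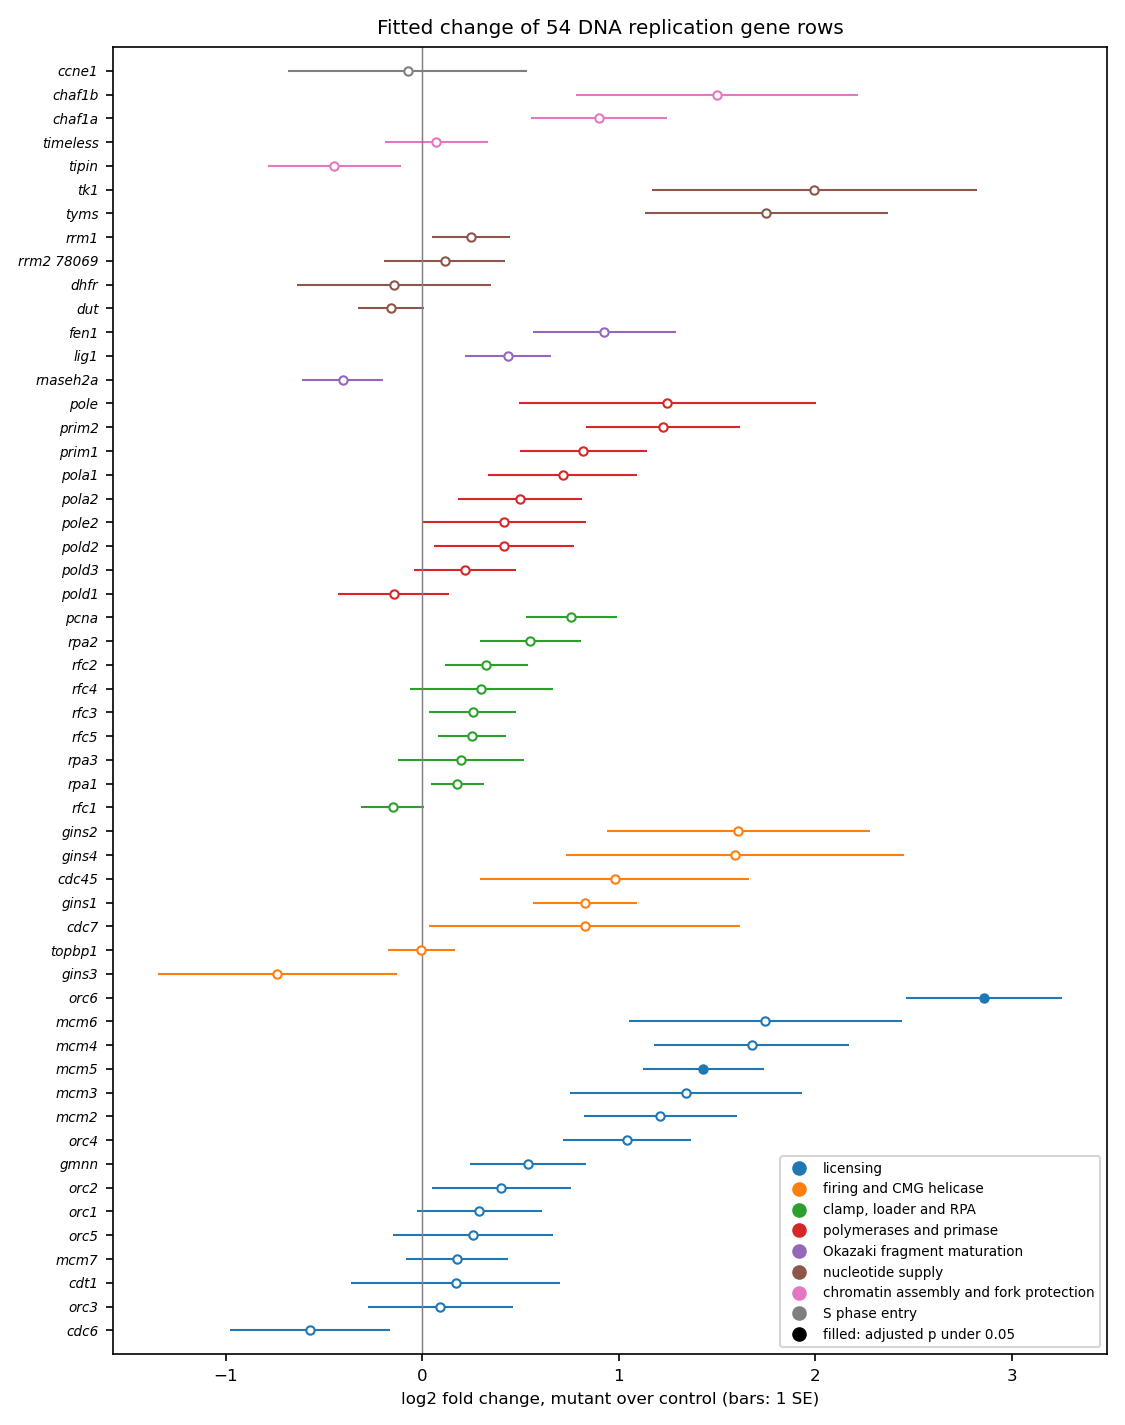
Log2 fold change (mutant minus control) of 54 members with bars of 1 SE, coloured by role; filled points passed an adjusted p of 0.05. *orc6* (2.86) and *mcm5* (1.43) are the 2 members called, 10 members lie below 0, and the *rrm2* row near the floor in the controls is not drawn.

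The pattern that ran through these groups was mutant 7. It was the highest of the 9 libraries for 39 of 55 members and the highest of the 4 mutants for 50 (90.9%), whereas over all genes it was the highest mutant for 25.5%. Mutant 7 exceeded the median of the other mutants by more than 2 times in 21 members, the median ratio was 1.86 over 54 members, and over all genes it was 1.01. *tipin* was the single member in which mutant 7 lay below that median. Mutant 7 lay above every control for 40 members, and mutants 6, 8 and 9 for 17, 13 and 22. Over all genes these shares were 21.7% for mutant 7 and 23.0%, 19.3% and 22.3% for mutants 6, 8 and 9, so that 13 of 55 for mutant 8 was near the share of all genes. In 37 of 55 members the median of mutants 6, 8 and 9 was above that of the controls. The share of all genes for which this held was not counted, so that this count has no background.

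Leaving out mutant 7 made the pattern smaller but did not turn its direction. Without it 40 members had a log2 fold change above 0, with a median of 0.21 beside −0.02 over all genes, and *orc6* alone was called. Of the 45 members above 0, 34 had a change more than 1.5 times smaller, or below 0, without mutant 7. The total count of mutant 7 was the highest of all libraries, just above control 3, and its cardiomyocyte marker sum (108422 CPM) was the highest of the mutants. Its macrophage and leukocyte sum (253 CPM) was the lowest of the 9 libraries. The erythrocyte sum was 1040 CPM in mutant 7 and 939 CPM in mutant 9, against 3218 CPM in mutant 6 and 3010 CPM in mutant 8. In the controls it ran from 985 to 2835 CPM. The part of these values in the pattern was not tested.

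**Figure D4:**
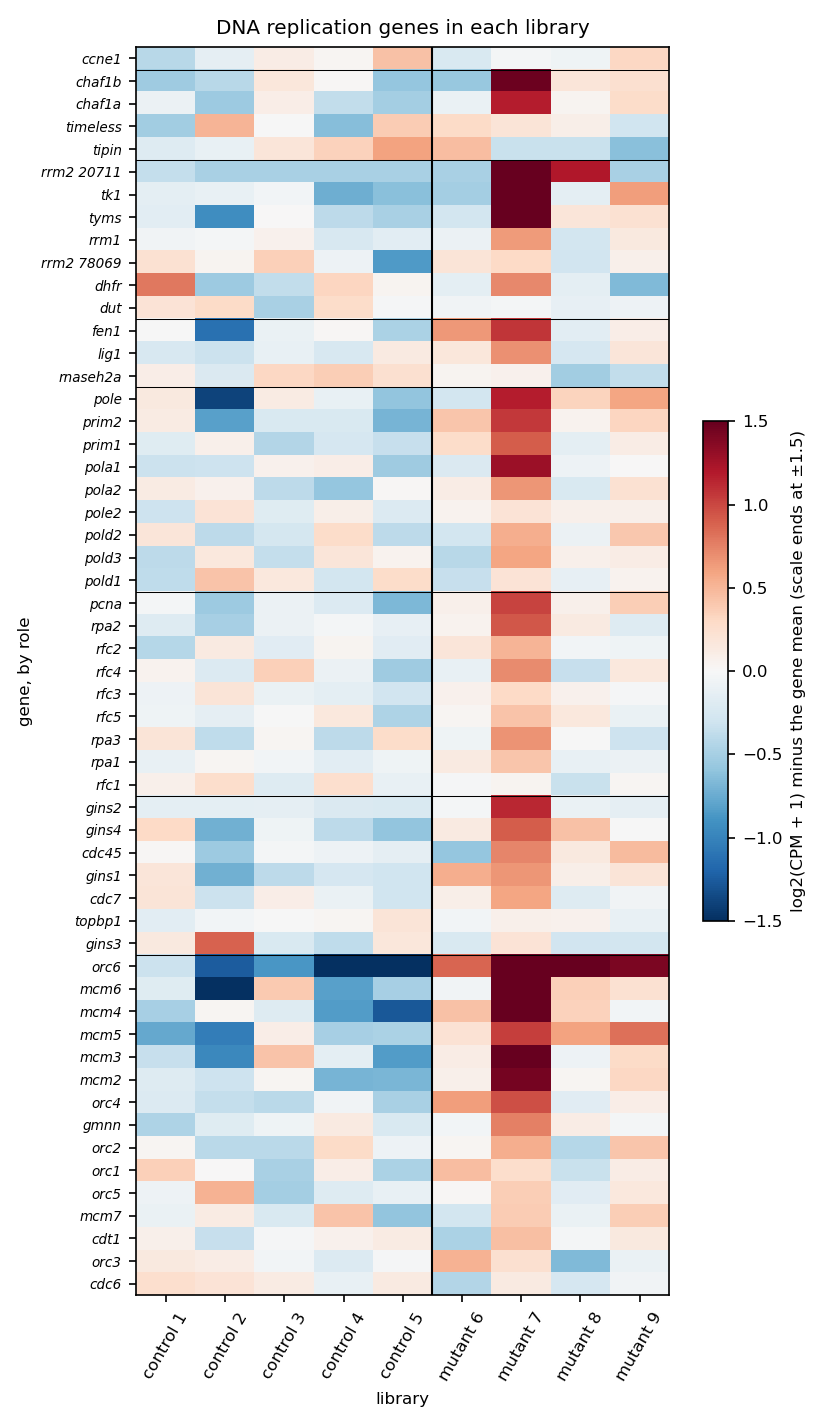
Log2(CPM + 1) of each member, centred on its mean over the 9 libraries, with members in rows by role and libraries in columns; red is above the mean, blue below, and the colour scale ends at ±1.5. Mutant 7 is the highest library for 39 of 55 rows, and mutants 6, 8 and 9 differ less from the controls.

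Other genes of the same pathway, which regulate or accompany the fork, had a smaller median change than the members, and its difference from them was not tested. The list of 59 symbols had 48 rows, of which 30 were above 0, with a median log2 fold change of 0.35. Mutant 7 was the highest mutant for 25 rows (52.1%), against 25.5% of all genes. The score of this list was 0.32 in mutant 7 and −0.05 to 0.10 in the other mutants. In the controls it ran from −0.26 to 0.02, so that the genotypes overlapped. The difference between the mean scores was 0.18, and 0.10 without mutant 7. None of the 48 rows was called by edgeR's quasi-likelihood test in its older form, and 2 of 48 were called higher by its newer form. Of all genes these forms called 2.13% and 3.34% higher. edgeR's likelihood ratio test called 4 of 48 higher and DESeq2 called 5 of 48, beside 4.93% and 5.60% of all genes called higher. At an unadjusted p under 0.05, 8 (16.7%) were higher and 1 lower, beside 11.0% of all genes higher and 9.87% lower. The 6 with the smallest p-values were, in order, *wdhd1*, which links the helicase to the primase, at 2.35 ± 0.65 (log2, SE; adjusted p 0.0795), *chtf18*, part of an alternative clamp loader, at 1.49 ± 0.46, and *e2f8*, a repressor of E2F target genes, at 2.16 ± 0.67. Then came *mms22l*, which protects forks, at 1.01 ± 0.33, *dscc1*, a partner of *chtf18*, at 2.55 ± 0.85, and *e2f4* at −0.77 ± 0.29. In *wdhd1* the mutants (0.630 to 2.89 CPM) lay above the controls (0.0629 to 0.566 CPM), at very low levels in all libraries. The controls held 2 to 20 counts for *wdhd1*, 0 to 12 for *dscc1* and 4 to 18 for *e2f8*. These genes reached the mean of 10 counts needed for a row only through the mutants, so that their direction was partly set by that filter.

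Mutants 7 and 9 had the highest scores for both replication and mitosis genes, in opposite order. Mitosis genes act later in the cycle, in chromosome condensation and segregation. Of 39 such rows, 35 were above 0 with a median log2 fold change of 1.46, but only 10 had a mean of at least 50 counts. The table kept rows by their mean over all 9 libraries, so that rows low in the controls could enter it through the mutants. *ccnb3*, *bub1*, *mad2l1*, *birc5*, *cdca8*, *kif2c*, *spc24*, *spc25*, *cdc20* and *prc1* ENSDARG00000100918 reached the mean of 10 counts only through the mutants. The *prc1* row held 0 to 11 counts in the controls and 2 to 53 in the mutants. All of these rows were above 0. Such rows favour changes above 0, and their part in the counts given here was not tested. None of the 39 rows was called by edgeR's quasi-likelihood test in its older form, while its newer form called 2 higher. These forms called 2.13% and 3.34% of all genes higher. The likelihood ratio test called 4 of the 39 rows higher, and DESeq2 called 4 of the 37 rows to which it gave an adjusted p. These tests called 4.93% and 5.60% of all genes higher. At an unadjusted p under 0.05, 16 (41%) were higher and 0 lower, beside 11.0% of all genes higher and 9.87% lower. *cdca8*, *kif2c*, *spc24*, *spc25* and *cdc20*, which entered through the mutants, are among these 16. Mutant 9 was the highest of the 9 libraries for 31 of the 39 mitosis rows and mutant 7 for 3. Among the replication members mutant 7 was highest for 39 and mutant 9 for 0. Mutant 7 lay above every control for 25 mitosis rows and mutant 9 for 34. The mitosis score was 0.42 in mutant 7 and 0.96 in mutant 9, and −0.10 and −0.11 in mutants 6 and 8. In the controls it ran from −0.58 to 0.13, so that the genotypes overlapped, with control 3 above mutants 6 and 8. The difference between the mean scores was 0.53. Control 2, the shallowest library, was the lowest control for 30 mitosis rows (76.9%) and for 20 of 55 replication members (36.4%), against 28.7% of all genes. In mutant 9 the macrophage and leukocyte sum was 814 CPM and the erythrocyte sum 939 CPM, and their part in the mitosis pattern was not tested.

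The place of the members in the genome was examined because a selected mutation carries neighbouring variants with it. In the RefSeq annotation of the GRCz12tu assembly, used for chromosomes and gene order only, *rfc1* and *rnaseh2a* were on the chromosome of *vegfc* (1), and both were below 0. *orc2*, *cdc6*, *rfc4*, *tk1* and *timeless* were on that of *vegfd* (11), with a median log2 fold change of 0.30, and the 48 other rows, which include both *rrm2* rows without a chromosome there, had a median of 0.52. Neither called member was on either chromosome, since *orc6* was on chromosome 7 and *mcm5* on chromosome 3. Some genes near them were also called. On either side of *orc6*, *mylk3*, the kinase of the cardiac myosin light chain, was at 1.39 (log2, adjusted p 0.00603 in edgeR's test) and *vps35* at 0.17 (not called). *foxred2*, 2 protein-coding genes away from *mcm5*, was at 1.76 (adjusted p 0.00183), and the rows of the table next to *mcm5*, *gcat* and *hmox1*, were not called, at 0.35 and 0.72. Of the 10 nearest rows, 3 were called around *orc6*, *plxdc2* and *mylk3* higher and *dnaja2* lower, and 1 around *mcm5*, where 3.34% of all genes were called in either direction. What these neighbours share with the called members was not tested.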

How the data were processed

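The authors trimmed the paired reads with Skewer, aligned them to GRCz11 with STAR 2.5.2a and counted reads on the correct strand of Ensembl genes with featureCounts 1.5.0 at a mapping quality of at least 20. The deposited values are raw counts per gene, kept where the mean was at least 10 counts. Whether a read pair counted once is not known here. Tables of the authors' own comparisons were not used.

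Counts were scaled by TMM in edgeR 4.0.16 (R 4.3.3) and tested over 16575 genes with the two-sided quasi-likelihood F test in its older (legacy) form, without covariates, since the labels name no batch. P-values had Benjamini-Hochberg adjustment, with a threshold of 0.05. The standard error of a log2 fold change was its size over the square root of F. A row with 3 counts or fewer in every library of a genotype was at the floor. Scores used a pseudocount of 1 CPM. Alternatives were the likelihood ratio test, the newer quasi-likelihood form, DESeq2 1.42.0, RLE and library-size scaling, a minimum mean of 50 counts, other score settings, and leaving out each library. The script for the main quasi-likelihood fit was tested on simulated data, and the alternatives were not.

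Symbols came from a table of gene names, which held 15812 identifiers (95.4%). Members, lists and tests were chosen with earlier results of these data known. Values in every library are given for called members, *mcm2* to *mcm7* and *pcna*, the member with the smallest p in each role, and the 4 with the most negative change; other genes given values were chosen after these were seen. Promoter and protein sequences were not used here, so the planned motif search was not run. The precision of a value is limited by its counts: mean counts of members ran from 10.4 to 963, and 13 rows were under 50.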

Additional observations from a re-analysis of the deposited data

Results flagged for a closer look

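Values far from the rest of their group were looked for in 112 groups of 4 or 5 libraries, by the gap to the nearest library over the whole range. They were found in 13. The cut-offs were set for 1 in 20, or 5.6, in normally distributed values, and CPM from low counts need not follow this, so that 5.6 is a rough guide only. Because members rise and fall together the 13 are not separate events. Mutant 7 was far above the other mutants in 10 members and in the score. Among licensing genes these were *gmnn* at 4.87 CPM (2.38 to 2.74 CPM in the other mutants), *mcm2* at 10.2 CPM (3.21 to 4.13), *mcm3* at 7.41 CPM (1.69 to 2.48), *mcm4* at 23.1 CPM (4.77 to 7.07) and *mcm6* at 14.3 CPM (2.45 to 3.57). Among the others these were *gins2* at 2.1 CPM (0.286 to 0.385), *gins3* at 0.974 CPM (0.396 to 0.455), *pola1* at 10.6 CPM (3.08 to 3.78), *pole2* at 0.974 CPM (0.770 to 0.795) and *tyms* at 7.57 CPM (1.02 to 1.84). The member score of mutant 7 was 0.76, with −0.00 to 0.10 in the other mutants.

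Mutant 8 was lowest for *rfc1*, at 8.54 CPM with 10.9 to 11.4 CPM in the other mutants. Control 1 was the single control with counts for the *rrm2* row ENSDARG00000020711, at 0.0927 CPM with 0 in the others, a value of 3 counts. The cause of none of these was tested.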

How the results depend on the processing

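No paired analysis was possible because the control libraries are numbered 1 to 5 and the mutants 6 to 9, so that no number is shared. The number of members called higher was 2 in the quasi-likelihood test under RLE and library-size scaling, the newer form and the minimum of 50 counts, 6 in the likelihood ratio test and 8 in DESeq2, which gave 101 genes no adjusted p; both tools added *mcm2*, *mcm4*, *pcna* and *prim2*. Without each library in turn it was 1 to 2. No member was called lower in any of these. Over all genes, 817 were called higher and 540 lower in the likelihood ratio test, 553 and 304 in the newer form and 929 and 737 in DESeq2, against 353 and 200, and leaving out a library gave 136 to 322 and 60 to 170. The median log2 fold change of the members was 0.21 to 0.58 without each library and 0.41 to 0.43 otherwise. The score difference of 0.40 was 0.39 to 0.67 over the other score settings, which include the minimum of 50 counts. The value of 0.67 was with each member divided by its SD, which changes the unit. Without each library the difference was 0.21 to 0.47. Leaving out a library changed the sign of 10 members with changes near 0: *topbp1* (−0.052 to 0.062), *timeless* (−0.062 to 0.23), *dhfr* (−0.66 to 0.19), *ccne1* (−0.45 to 0.31), *orc3* (−0.21 to 0.35), *rrm2* ENSDARG00000078069 (−0.072 to 0.25), *cdt1* (−0.22 to 0.48), *rfc4* (−0.051 to 0.49), *rpa3* (−0.13 to 0.35) and *pold3* (−0.0098 to 0.38). The precision is limited by 4 and 5 libraries and, in 13 members, by a mean under 50 counts; the cause of these shifts was not tested.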
